A study of Homo sapiens with 8 samples.

Results

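The BCL2 family sets the threshold at which a cell commits to apoptosis through its mitochondria. Its members were followed here in 2 colon cancer cell lines at normal and low oxygen. The members were the guardians BCL2, BCL2L1 and MCL1, the effectors BAX and BAK1, and the BH3-only genes BID, BCL2L11, PMAIP1, BAD and BBC3. They were taken as all probe sets assigned to exactly 1 gene symbol among these 10 genes. This gave 32 of 54613 probe sets, for 9 of the 10 members and out of 19775 genes with a probe set of their own. BBC3, which encodes the BH3-only protein PUMA, is listed only on a probe set that names further genes, so its expression was not analysed here.

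Guardians bind and hold back their pro-apoptotic relatives. When BH3-only proteins occupy the guardians or activate the effectors, BAX and BAK1 assemble into pores in the outer mitochondrial membrane, cytochrome c escapes and caspases are activated. Much of this control is exerted on the proteins, by cleavage, phosphorylation, degradation and binding partners, which RNA levels do not measure. Oncogenic K-ras signalling and low oxygen are both known to act on several of these genes, among them BCL2L1, BCL2L11 and PMAIP1.

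Expression arrays were made from DKS-5, labelled K-ras mutant, and DKO-3, labelled K-ras knockout (wild-type). Each line was kept at 21% O2 (normoxia) or for 12 h at 1% O2 (hypoxia), and each of the 4 groups had 2 arrays. The labels set up the comparisons of oxygen within each line and of the lines at each oxygen level. Each genotype is 1 line, so the K-ras status cannot be told apart from other differences between these lines, and the K-ras gene itself was not analysed here. Whether the arrays of a group came from separate cultures is not stated in the labels, so a p-value reflects only how far these arrays spread, which may be a technical spread.

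Values are MAS5 signals after scaling each array to a common trimmed mean of 172.1. Tests were made on log2(scaled signal + 16) with limma, with p-values adjusted by the Benjamini-Hochberg method over 32768 probe sets and a threshold of 0.05. A fold change from this scale understates the change of a dim probe set. Of the 32 member probe sets, 26 passed the filter on dim signals, which lay at a scaled signal of about 13.8. The 6 others were 3 of 4 for BCL2, 1 of 4 for BCL2L1 and 2 of 3 for BAD. A gene's leading probe set is the one with the highest mean log2 value over the 8 arrays, and signals of different probe sets were not set against each other, since they differ in probe response. An ID that ends in _s_at marks a probe set shared by several transcripts.

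Replicate arrays correlated with r from 0.970 to 0.986 over the tested probe sets. The number of arrays, 2 per group, limits the precision of every value. Of 12 colon epithelial markers 8 were above the filter, and CDX1, LGALS4, CEACAM5 and GPA33 were below it. Of 14 non-epithelial markers 4 were above it (COL1A1, ACTA2, DES and HBB), and 0 of these 4 passed in any comparison. Signals summed over all 14 were 162 to 270 per array. Those of all 12 epithelial markers summed to 16730 to 21562. The sums come from different probe sets, so their ratio does not measure shares of cells. Averaged over oxygen, ACTA2 and DES had an unadjusted p under 0.05 between the lines, with a median of 0.32 over the 4. Of the 8 epithelial markers, VIL1 was higher in DKS-5 by 1.65, and KRT20 and KRT19 were lower, at -4.01 and -0.96. KRT20 signals were 6.20 to 15.5 in DKS-5 and 301 to 445 in DKO-3. The part of these marker differences in the member results was not tested. The ratio of the 3' to the 5' control probe set of ACTB, a sign of RNA integrity and of how far the labelling reached, was 55.1 and 34.3 in the DKS-5 normoxia arrays, and the DKS-5 hypoxia arrays had 54.8 and 25.6. In DKO-3 it was 49.0 and 14.9 at normoxia and 11.47 and 11.02 at hypoxia. It was thus unequal between the groups and within each group other than DKO-3 hypoxia. The same ratio for GAPDH ran from 1.53 to 4.23 and was lowest in the DKO-3 hypoxia arrays.

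BCL2L1 gave the only member probe sets that passed the test, and they did so between the lines. It encodes BCL-XL, the guardian that holds BAX and BAK1 in check at the mitochondrial membrane and that many epithelial tumours express. Averaged over oxygen, its signal was 1.72-fold lower in DKS-5 than in DKO-3 by 206665_s_at and 1.89-fold lower by 215037_s_at. The 250 bases upstream of its outermost RefSeq start site (GRCh38.p14, chr20:31723964-31724213, minus strand) are shown because this is the gene on which the difference between the lines rests. None of the motifs searched on either strand lies in it, so it has no capitals. The window of the gene's other RefSeq start, not shown, holds 1 of them, GCGTG, 64 bases before that start. The motifs were the E-box CACGTG, the hypoxia core ACGTG that lies within it, the other hypoxia core GCGTG, the ETS core CGGAAG and the STAT pattern TTCNNNGAA.
BCL2L1: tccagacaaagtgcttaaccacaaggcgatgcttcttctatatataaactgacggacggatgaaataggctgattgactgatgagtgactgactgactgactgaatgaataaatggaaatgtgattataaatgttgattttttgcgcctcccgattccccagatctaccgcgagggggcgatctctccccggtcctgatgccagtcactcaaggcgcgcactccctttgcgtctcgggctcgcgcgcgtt

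The scaled signal of 206665_s_at was 286 and 279 at normoxia and 353 and 330 at hypoxia in DKS-5. In DKO-3 it was 323 and 597 in normoxia and 812 and 564 in hypoxia. All 4 DKS-5 arrays were low and 3 of the 4 DKO-3 arrays were high. The first DKO-3 normoxia array lay among the DKS-5 arrays, so the lines overlapped by that array. It was also the DKO-3 array whose ACTB ratio, 49.0, lay within the range of DKS-5. The group means were 283 ± 4.60 and 341 ± 15.9 for DKS-5 normoxia and hypoxia and 460 ± 194 and 688 ± 175 for DKO-3 (SD, n = 2).

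The second probe set, 215037_s_at, gave 189 and 194 at normoxia and 229 and 301 at hypoxia in DKS-5. It gave 274 and 439 at normoxia and 607 and 504 at hypoxia in DKO-3. The order of the group means was the same as for 206665_s_at, at 191 ± 3.09, 265 ± 50.6, 357 ± 117 and 556 ± 72.9 (SD, n = 2). Within each oxygen level the lines did not overlap in either probe set. The same held for 41% of all tested probe sets in normoxia and 42.7% in hypoxia. Across the levels 215037_s_at overlapped too, its first DKO-3 normoxia array at 274 lying under a DKS-5 hypoxia array at 301.

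The difference between the lines averaged over oxygen, DKS-5 minus DKO-3, was -0.78 on the log2 scale (95% interval -1.21 to -0.36) for 206665_s_at, with a Benjamini-Hochberg adjusted p of 0.0309 from limma. For 215037_s_at it was -0.92 (95% interval -1.32 to -0.52), with an adjusted p of 0.00835. The third tested probe set, 212312_at, differed by -0.40 (95% interval -0.91 to 0.11), with an adjusted p of 0.391. Of the 26 member probe sets tested, these 2 of 1 gene passed in this comparison, a share of 7.69% beside 5.71% of all tested probe sets. In the direction of both, lower in DKS-5, 3.97% of all tested probe sets passed. The members' share was thus near that of the array as a whole.

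Both calls ended when the ACTB ratio entered the fit, and the calls over all 32768 tested probe sets went from 1870 to 532. The difference was then -0.44 for 206665_s_at (adjusted p of 0.541) and -0.52 for 215037_s_at (adjusted p of 0.372), while that of 212312_at was -0.57 (adjusted p of 0.541). Without the second DKO-3 normoxia array 0 member probe sets passed instead of 2. Without the first DKO-3 hypoxia, the second DKS-5 hypoxia or either DKS-5 normoxia array 1 passed. Over the 8 fits that each left out 1 array, 206665_s_at passed in 3 and 215037_s_at in 7, and with no filter on dim probe sets the adjusted p of 206665_s_at was 0.0992. In each of the 15 alternative settings that tested single probe sets the difference stayed negative for all 3 probe sets. The part of RNA quality in the difference was not tested beyond this covariate, which itself differs between the lines.

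At each oxygen level taken alone, no BCL2L1 probe set passed at the main settings. In hypoxia the line difference was -0.96 for 206665_s_at (adjusted p of 0.0995) and -1.03 for 215037_s_at (adjusted p of 0.0590), and without the first DKO-3 normoxia array the latter passed, at an adjusted p of 0.0493. In normoxia it was -0.61 and -0.81, with adjusted p-values of 0.551 and 0.241. With arrays left unscaled both probe sets passed in hypoxia, at -1.40 and -1.47. The median of all tested probe sets then lay at -0.42 in that comparison, and 5100 of 32768 passed lower in DKS-5.

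**Figure D1:**
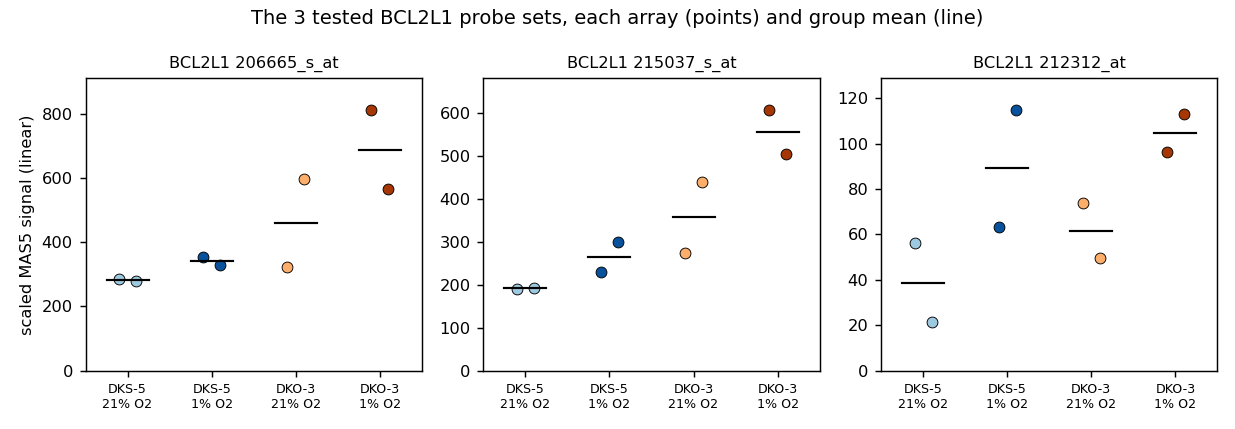
Scaled MAS5 signal (linear, arbitrary units) of the 3 tested BCL2L1 probe sets in the 4 groups, with points for arrays and lines for group means. For 206665_s_at and 215037_s_at the DKO-3 arrays reach 812 and 607 while the DKS-5 arrays stay at or under 353 and 301, and the first DKO-3 normoxia array lies low at 323 and 274.

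No BCL2L1 probe set passed for hypoxia. All 3 tested probe sets had positive differences in both lines, at 0.26, 0.43 and 0.97 in DKS-5 and 0.60, 0.65 and 0.65 in DKO-3 for 206665_s_at, 215037_s_at and 212312_at. Averaged over the lines they were 0.43, 0.54 and 0.81, with adjusted p-values of 0.446, 0.297 and 0.203. The signals of 212312_at, the probe set with the widest difference, were 56.0 and 21.3 at normoxia and 63.3 and 115 at hypoxia in DKS-5. They were 73.7 and 49.7 at normoxia and 96.2 and 113 at hypoxia in DKO-3. Hypoxia arrays were the higher ones within each line, and the first DKS-5 hypoxia array lay under the higher of the DKO-3 normoxia arrays. With the ACTB ratio in the fit the averaged differences were 0.22, 0.29 and 0.91 in the same order, with adjusted p-values of 0.984, 0.945 and 0.508.

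MCL1, a short-lived guardian whose RNA is made at high rates to replace its protein, showed no difference past the threshold. Its leading probe set, 200797_s_at, had signals of 3079 and 1913 at normoxia and 1829 and 3241 at hypoxia in DKS-5. In DKO-3 they were 2152 and 2094 in normoxia and 1928 and 2431 in hypoxia. The DKS-5 arrays of each group differed from each other by more than any group means did. The averaged hypoxia difference was 0.02 (95% interval -0.37 to 0.41) and the averaged line difference was 0.18 (95% interval -0.21 to 0.57), both on the log2 scale. Over its 6 probe sets the averaged hypoxia difference ran from -0.07 to 0.40. The highest value came from the dim 200796_s_at, with an adjusted p of 0.437.

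BCL2, the founding guardian, was dim. Only 207004_at of its 4 probe sets passed the filter. It had signals of 28.4 and 19.7 at normoxia and 28.3 and 28.3 at hypoxia in DKS-5. The DKO-3 arrays had 11.6 and 31.3 at normoxia and 21.2 and 19.8 at hypoxia. The DKO-3 normoxia arrays alone spanned the range of all the others. The averaged hypoxia difference was 0.08 and the averaged line difference 0.21, with adjusted p-values of 0.920 and 0.624.

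BAX, the effector that moves from the cytosol to mitochondria and is a known p53 target, had positive hypoxia differences in both lines that did not pass. Its leading probe set 211833_s_at gave 41.4 and 51.7 at normoxia and 66.1 and 73.1 at hypoxia in DKS-5. In DKO-3 it gave 36.1 and 81.8 in normoxia and 72.6 and 108 in hypoxia. The DKS-5 groups did not overlap, whereas the DKO-3 groups did, through their second normoxia array. The averaged hypoxia difference was 0.50 (95% interval 0.04 to 0.97), with an unadjusted p of 0.0367 and an adjusted p of 0.420 from limma. The other BAX probe set, 208478_s_at, gave 0.17 with an adjusted p of 0.807.

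The 250 bases upstream of the BAX start site (GRCh38.p14, chr19:48954625-48954874, plus strand) are shown because they hold more matches to the E-box than any other member's window. Capitals mark CACGTG, which begins 138, 93, 45 and 14 bases before the start.
BAX: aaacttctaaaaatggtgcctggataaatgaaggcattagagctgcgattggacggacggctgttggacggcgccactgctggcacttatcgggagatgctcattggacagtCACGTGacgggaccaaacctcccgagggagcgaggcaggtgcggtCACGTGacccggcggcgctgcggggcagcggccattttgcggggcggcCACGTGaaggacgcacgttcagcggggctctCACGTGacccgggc

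Over windows of the 250 bases upstream of a start site, CACGTG was found in 6.32% of 34943 RefSeq windows. The members had 15 windows, of 9 genes that include BBC3, and MCL1 had no window and was not searched. CACGTG was in 4 of the 15, which belong to BAX, BID and BBC3. ACGTG, the core of the hypoxia response element, lies within CACGTG and was in the same 4, beside 18.5% of all windows. Its other spelling, GCGTG, was in 7 windows of BAD, BCL2L1, BCL2L11, BID and PMAIP1, beside 32.2% of all. CGGAAG, an ETS core, was in 1 window, of BCL2, beside 16.4% of all, and TTCNNNGAA, a STAT pattern, was in 0, beside 6.56%. Windows of a gene can overlap and are not separate sites: the matches to CACGTG in the 2 BID windows are 1 site, and so are those to GCGTG in the 2 BAD and in the 2 BID windows. A match describes the letters only and is no measured binding.

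BAK1, the effector that resides in the mitochondrial membrane, showed no difference past the threshold. Its only probe set, 203728_at, gave 61.1 and 78.3 at normoxia and 57.0 and 101 at hypoxia in DKS-5. The DKO-3 arrays had 70.9 and 88.3 at normoxia and 85.5 and 114 at hypoxia. The groups of each line overlapped. The averaged hypoxia difference was 0.19 (95% interval -0.24 to 0.63) and the averaged line difference -0.24 (95% interval -0.67 to 0.20).

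**Figure D2:**
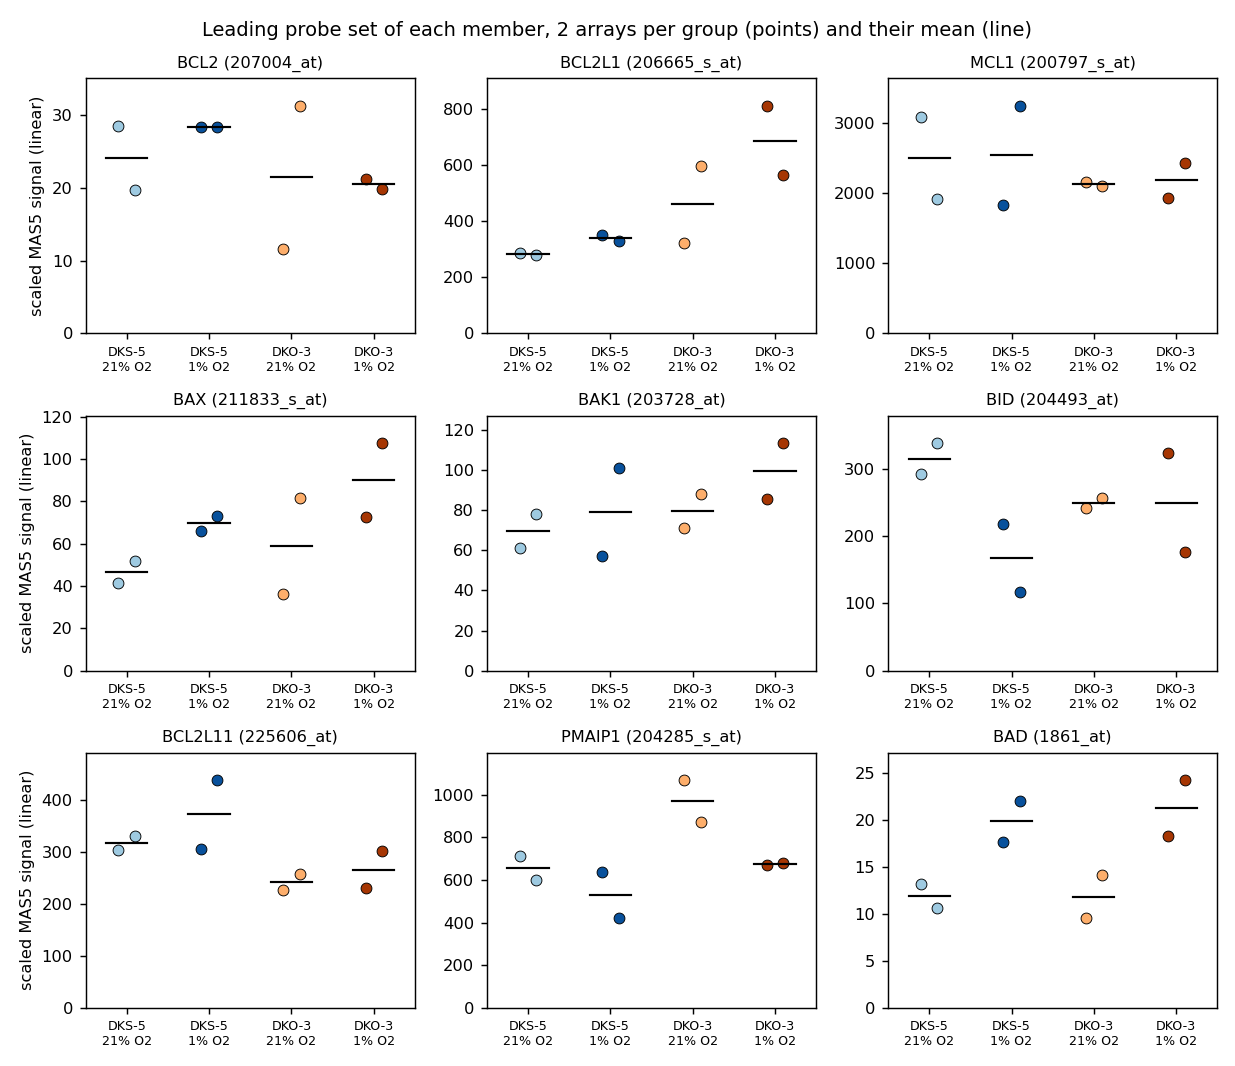
Scaled MAS5 signal (linear, arbitrary units) of the leading probe set of each of the 9 members measured, with points for the 2 arrays of each group and lines for their mean. Each panel has its own axis from 0. BCL2L1 is higher in 3 of 4 DKO-3 arrays, BID is lower in both DKS-5 hypoxia arrays than in the DKS-5 normoxia arrays, and BAD is higher in all 4 hypoxia arrays.

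Among the BH3-only genes, BID had the widest difference within a line. BID is the protein that caspase-8 cleaves, which links death receptors to the mitochondria. Its leading probe set 204493_at gave 292 and 339 at normoxia and 219 and 117 at hypoxia in DKS-5. In DKO-3 it gave 241 and 257 in normoxia and 323 and 176 in hypoxia. The DKS-5 groups did not overlap, and in DKO-3 the normoxia arrays lay between the hypoxia arrays.

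The BID difference with hypoxia was -0.91 in DKS-5 (95% interval -1.58 to -0.23), with an unadjusted p of 0.0116 and an adjusted p of 0.770, while DKO-3 gave -0.05. DKS-5 minus DKO-3, these responses differed by -0.85 (95% interval -1.80 to 0.10), with an unadjusted p of 0.0752 and an adjusted p of 1 from limma. The responses of the lines were therefore not separated. Its other probe sets gave -0.19 and -0.36 in DKS-5 and 0.50 and 0.05 in DKO-3 for 211725_s_at and 227143_s_at. All 3 were negative in DKS-5, and the probe sets disagreed in sign in DKO-3.

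PMAIP1 encodes NOXA, a BH3-only protein that neutralises MCL1. Its leading probe set 204285_s_at gave 713 and 598 at normoxia and 637 and 421 at hypoxia in DKS-5. In DKO-3 it gave 1069 and 872 in normoxia and 670 and 678 in hypoxia. The DKO-3 normoxia arrays were the highest of all, and the DKO-3 groups did not overlap.

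For PMAIP1 the hypoxia difference was -0.51 in DKO-3 and -0.33 in DKS-5. Averaged over the lines it was -0.42 (95% interval -0.77 to -0.06), with an adjusted p of 0.366. The averaged line difference was -0.46 (95% interval -0.82 to -0.11), with an adjusted p of 0.133. It passed without the first DKS-5 hypoxia array, at -0.61 (adjusted p of 0.0309), and without array scaling, at -0.69 (adjusted p of 0.0183). The second probe set, 204286_s_at, had the same signs, at -0.39 and -0.26 for these averaged comparisons.

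BCL2L11 encodes BIM, a BH3-only protein that binds every guardian and is removed after phosphorylation by ERK, a kinase downstream of K-ras. Its leading probe set 225606_at gave 304 and 330 at normoxia and 306 and 439 at hypoxia in DKS-5. The DKO-3 arrays had 227 and 258 at normoxia and 230 and 303 at hypoxia. All 4 DKS-5 arrays were above all 4 DKO-3 arrays, the highest of which was at 303 beside a DKS-5 low of 304. This was the only member probe set of 26 without overlap between the lines, beside 11.9% of all tested probe sets. The averaged line difference was 0.41 (95% interval 0.03 to 0.79), with an unadjusted p of 0.0372 and an adjusted p of 0.225. Its 7 probe sets, all tested, differed in that direction by 0.01 to 0.52. The highest was 1555372_at, with an adjusted p of 0.196.

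BAD, a BH3-only protein that growth factor signalling inactivates by phosphorylation, was near the filter. Its tested probe set 1861_at gave 13.2 and 10.6 at normoxia and 17.7 and 22.1 at hypoxia in DKS-5. The DKO-3 arrays had 9.57 and 14.1 at normoxia and 18.3 and 24.2 at hypoxia. All 4 hypoxia arrays were above all 4 normoxia arrays, the only member probe set of 26 for which this held, beside 5.09% of all tested probe sets that did not overlap. The averaged difference was 0.39 (95% interval 0.03 to 0.76), with an unadjusted p of 0.0368 and an adjusted p of 0.420.

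Over the family, 0 of the 26 tested probe sets passed for hypoxia in DKS-5, beside 0.266% of all tested probe sets, and 2 had an unadjusted p under 0.05, beside 5.35%. The DKS-5 arrays of the oxygen levels did not overlap in 10 of 26, beside 34% of all tested. In DKO-3 it was 0, beside 0.177%, with 3 at an unadjusted p under 0.05, beside 8.07%, and arrays that did not overlap in 7, beside 37.6%. Averaged over the lines it was 0, beside 0.61%, with 8 at an unadjusted p under 0.05, beside 11.1%. The hypoxia difference averaged over the lines was positive in 19 and negative in 7 members' probe sets, with a median of 0.11 beside 0.02 over all tested. These counts rest on several probe sets per gene, which are not independent.

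For the difference between the responses of the lines, 0 of 26 passed, beside 0% of all tested probe sets, and 0 had an unadjusted p under 0.05, beside 2.25%. For the lines in normoxia 0 passed, beside 1.15%, and 3 had an unadjusted p under 0.05, beside 8.86%, and the lines did not overlap in 9, beside 41%. For the lines in hypoxia 0 passed, beside 2.08%, and 2 had an unadjusted p under 0.05, beside 15.9%, and the lines did not overlap in 9, beside 42.7%. The averaged line difference was negative in 12 and positive in 14 members' probe sets, with a median of 0.01 beside -0.02 over all tested.

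**Figure D3:**
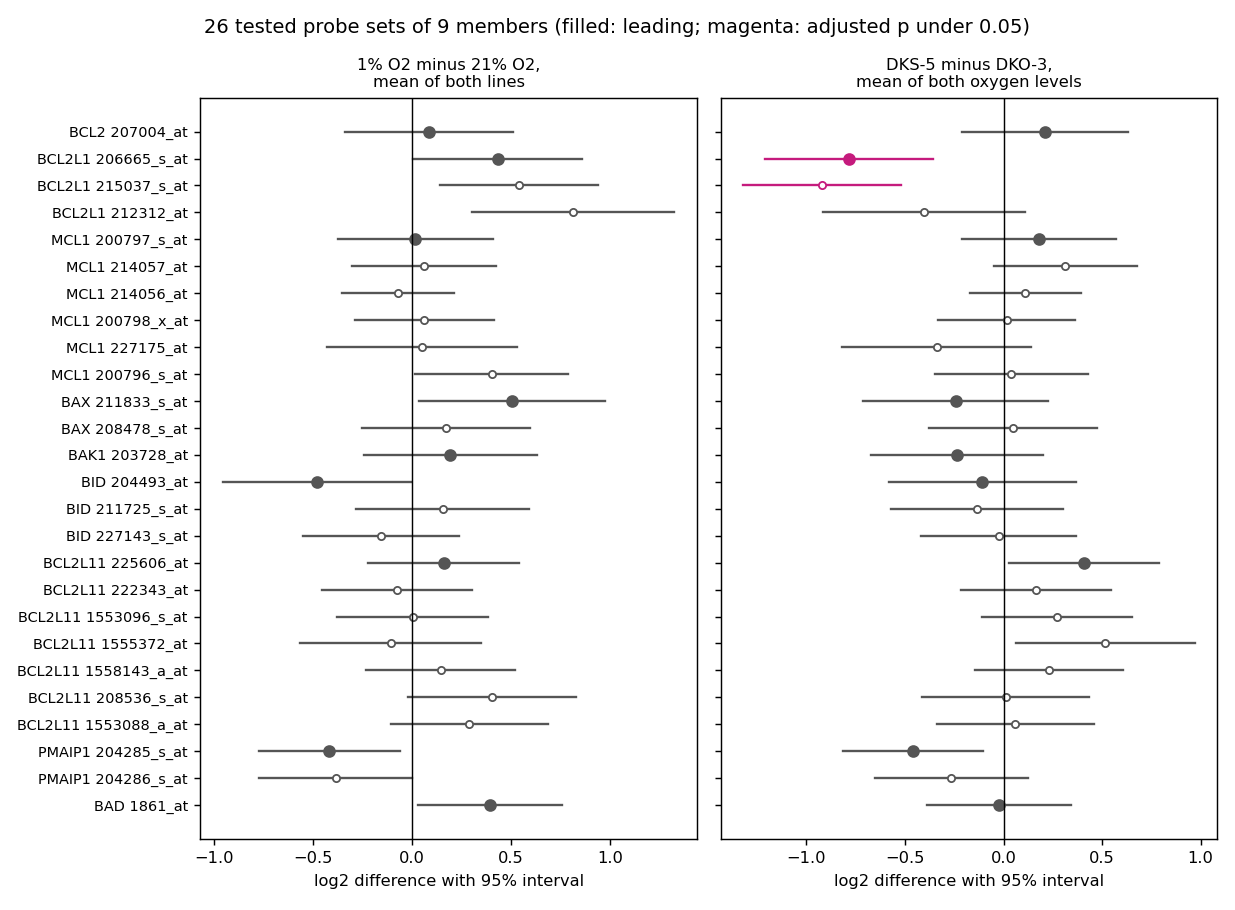
Log2 differences of the 26 tested member probe sets for hypoxia averaged over the lines (left) and for DKS-5 minus DKO-3 averaged over oxygen (right), with points for the estimate (filled for the leading probe set) and bars for its 95% interval. In the right panel 206665_s_at and 215037_s_at of BCL2L1, at -0.78 and -0.92, are the only ones past the threshold (magenta), and the left panel has none.

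The members with the largest spread of group means on the log2 scale were BCL2L1 (SD 0.53), BID (0.38) and PMAIP1 (0.36). The genes whose log2 values were most alike over the 8 arrays, out of 12734 compared, were ILK (r = 0.983), GTF2H4 (0.977) and RASL11A (0.975) for BCL2L1. For BID they were MFF (0.983), PRCC (0.973) and TRUB2 (0.969). For PMAIP1 they were TERF1 (0.978), ATP6V1E1 (0.966) and TCF4 (0.964). These correlations describe 8 arrays that share their groups and their labelling, and with so many genes compared some high values arise.

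Of 14 further BCL2 relatives, 13 had a leading probe set above the filter. BNIP3L, which encodes NIX, a mitochondrial protein that recruits the autophagy machinery and a known hypoxia target, rose in both lines, and the 12 others passed in none of the 7 comparisons at the main settings. Its signal was 564 and 455 at normoxia and 2148 and 2758 at hypoxia in DKS-5, and 722 and 500 at normoxia and 2401 and 2211 at hypoxia in DKO-3. The groups of each line lay far apart. The differences were 2.23 in DKS-5 (adjusted p of 0.000198) and 1.91 in DKO-3 (adjusted p of 0.00286). The DKO-3 call ended without the first DKO-3 hypoxia array and with no filter on dim probe sets, with adjusted p-values of up to 0.0948, and the averaged difference of 2.07 passed in each of 17 alternatives.

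BCL2L10, a guardian best known from oocytes, had the smallest unadjusted p among these relatives for a difference between the responses of the lines, at -1.60 (unadjusted p of 0.00113, adjusted p of 1). Its signal was 42.3 and 25.3 at normoxia and 4.66 and 5.85 at hypoxia in DKS-5. In DKO-3 it was 15.3 and 19.9 in normoxia and 39.7 and 18.9 in hypoxia. The DKS-5 hypoxia arrays were the lowest, at signals under the filter. Between the lines in hypoxia it differed by -1.05 (adjusted p of 0.0688). It passed there with a pseudocount of 1 (adjusted p of 0.0431), with the leading or the mean probe set per gene and without the second DKO-3 hypoxia array. Without array scaling 5100 of all 32768 tested probe sets passed lower in DKS-5 in hypoxia, and 3298 did so averaged over oxygen. In that setting BCL2L10, BCL2L13 and BCL2L14 passed in hypoxia, and BCL2L13 and BOK averaged over oxygen, all lower in DKS-5. BNIP3, the paralog of BNIP3L, was next at 0.92 (unadjusted p of 0.0510, adjusted p of 1).

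Downstream of the mitochondrial pore, 14 of 17 genes could be tested and 0 passed in any of the 7 comparisons. In these, 0 to 3 genes had an unadjusted p under 0.05. CASP9, the caspase that the apoptosome activates, had the smallest p for hypoxia averaged over the lines, at 0.61 (unadjusted p of 0.00343, adjusted p of 0.190). Its signal was 62.1 and 77.2 at normoxia and 123 and 141 at hypoxia in DKS-5. The DKO-3 arrays had 106 and 121 at normoxia and 156 and 159 at hypoxia. The groups did not overlap within either line. ENDOG, a mitochondrial nuclease, was next at 0.61 (adjusted p of 0.279), and CYCS, cytochrome c, had the smallest p between the lines averaged over oxygen, at 0.29 (adjusted p of 0.162), followed by CASP9 at -0.42 (adjusted p of 0.205), which passed without array scaling, at -0.62 (adjusted p of 0.0467).

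Of 22 regulators of the members, 21 could be tested and 1 passed in 1 comparison. ATF4, the transcription factor of the integrated stress response that can raise PMAIP1, was lower in DKS-5 averaged over oxygen, at -0.53 with an adjusted p of 0.0361. Its signal was 1685 and 1548 at normoxia and 1951 and 1322 at hypoxia in DKS-5. The DKO-3 arrays had 1823 and 2078 at normoxia and 2653 and 2966 at hypoxia. The lines lay apart in each oxygen level and overlapped across them. The call was lost without each array in turn other than the first DKS-5 hypoxia array. It was lost with no filter on dim probe sets, and with the ACTB ratio in the fit, at -0.63 with an adjusted p of 0.208, the highest over all 17 alternatives, of which it passed in 8. In hypoxia alone the ATF4 difference between the lines was -0.80 (adjusted p of 0.0515), and it passed in 7 of 18 alternatives. Without array scaling 5100 of all 32768 tested probe sets passed lower in DKS-5 in hypoxia, and 3298 did so averaged over oxygen. In that setting DDIT3 and PPP3CA passed beside ATF4, in hypoxia and averaged over oxygen, all lower in DKS-5. With the mean of all probe sets per gene FOXO3 and PPP3CA passed beside it in the average, again lower in DKS-5. PPP3CA also passed in the average with quantile normalization, at -0.52, and with the leading probe set per gene, at -0.49. Without the second DKS-5 hypoxia array the averaged PPP3CA difference was -0.55. CASP8, the protease that cleaves BID, had an averaged hypoxia difference of 1.06 with an adjusted p of 0.231, and 1 of its DKS-5 hypoxia arrays stood at 1550 beside 338 in the other. Without the array at 338, a single array was left in that group. The CASP8 hypoxia difference was then 2.35 in DKS-5 and 1.60 averaged over the lines, and DKS-5 minus DKO-3 in hypoxia was 1.32. FOXO1, a transcription factor that can raise BCL2L11, was next after CASP8 for hypoxia averaged over the lines, at -0.53 (adjusted p of 0.267).

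The response to low oxygen itself was measured by a list of 12 known hypoxia targets, 11 of them tested. Of these, 10 rose in DKS-5 with a list median of 1.90, 7 rose in DKO-3 with a median of 1.38, and 11 rose averaged over the lines with a median of 1.43. NDRG1, a stress-induced hypoxia target, rose by 3.08 averaged over the lines. The DKO-3 count went down to 1 with no filter on dim probe sets and also to 1 without the first DKO-3 hypoxia array. It was 2 without either DKO-3 normoxia array, 4 without the second DKO-3 hypoxia array and 2 with the ACTB ratio in the fit. The DKS-5 count went down to 6 without the first DKS-5 normoxia array. The lines' counts were not compared, and for the difference between the responses 0 of the 11 passed and 3 had an unadjusted p under 0.05. Between the lines, 1 of the 11 was lower in DKS-5 in normoxia and 1 was higher in hypoxia. Averaged over oxygen 2 were higher in DKS-5 and 1 was lower. With the ACTB ratio in the fit the counts in hypoxia and averaged over oxygen were 0.

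**Figure D4:**
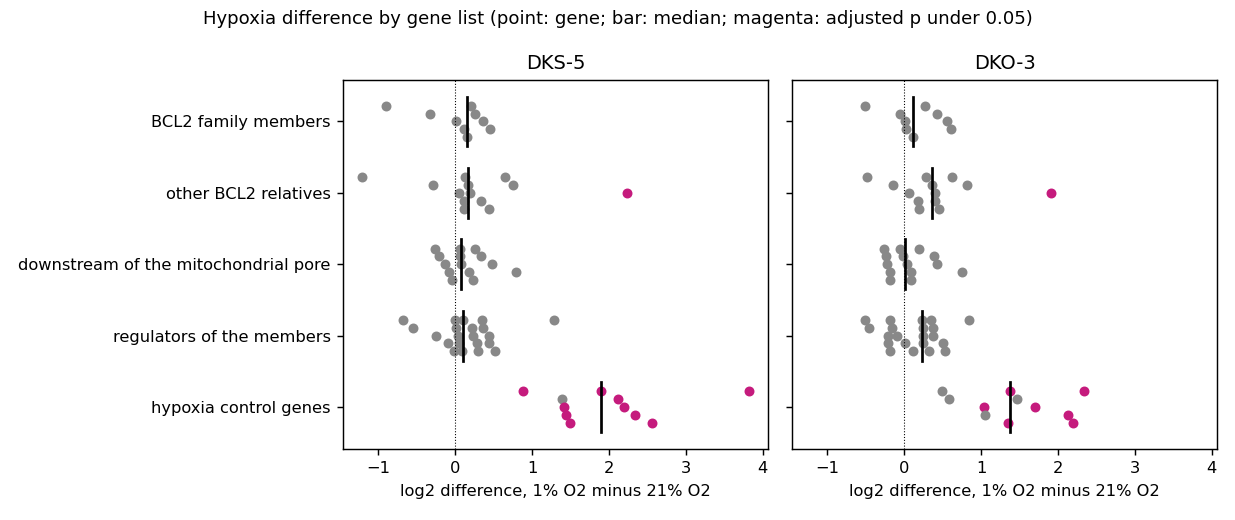
Log2 difference with hypoxia in each line for the genes of each list, 1 point per gene by its leading probe set. The hypoxia targets lie well above 0, with DKS-5 and DKO-3 medians of 1.90 and 1.38, BNIP3L, at 2.23 and 1.91, is the only relative past the threshold in either line, and the BCL2 family members lie about medians of 0.15 and 0.12.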

How the data were processed

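Human DKS-5 and DKO-3 cells were profiled on 8 Affymetrix arrays. The deposited values are probe set intensities on a linear scale, which the authors computed with MAS5, per the submitters' processing notes. A version, a target signal and a genome build are not given in the sources used here. The trimmed means (2% at each end, control probe sets left out) differed 1.52-fold between arrays, over the tolerance of 10%, so each array was scaled to their median. Values were taken as log2(scaled signal + 16). The 62 control probe sets were left out, and probe sets above the 40th percentile of mean log2 values were tested. Symbols came from the platform annotation: 41091 probe sets had 1 symbol, and 41037 of them matched RefSeq.

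limma 3.58.1 in R 4.3.3 fitted 1 mean per group over all 8 arrays (eBayes with trend, two-sided), which left 4 residual degrees of freedom, and tested every probe set for itself in 7 comparisons. The script was tested on simulated data. All members are named. Of the relatives, the genes downstream of the pore and the regulators, those that passed at the main settings are named, up to 6. Where none did, the 2 with the smallest p are named for part of the comparisons. Of the hypoxia targets that passed, only NDRG1 is named. The members, lists and tests were chosen with earlier results of these data known. Alternatives were the pseudocount, filter, scaling, normalization, probe set summary, an ACTB ratio covariate, a replicate block, robust eBayes, fits of the compared arrays and leaving out each array. Running them for the pathway lists, BNIP3L and ATF4 was chosen after seeing the data. Promoter windows are those of RefSeq (GRCh38.p14), found for 9 members, with BBC3 among them and MCL1 missing.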

Additional observations from a re-analysis of the deposited data

How the results depend on the processing

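With 2 arrays per group, precision was limited by the number of arrays, and dim probe sets such as those of BCL2 and BAD by their signal near the filter. The count of member probe sets lower in DKS-5 averaged over oxygen was 2. It was 0 with the ACTB ratio in the fit, and 1 with no filter, with the leading probe set per gene or with the mean of all probe sets per gene. The last pair counts genes, so the probe sets of BCL2L1 count once. It was 3 without array scaling, with PMAIP1 204285_s_at added. Leaving out 1 array gave 0 to 3: 0 without the second DKO-3 normoxia array, and 1 without the first DKO-3 hypoxia, the second DKS-5 hypoxia or either DKS-5 normoxia array. For the lines in hypoxia the count was 0, but 5 without array scaling (BCL2L1, BID and PMAIP1, all lower in DKS-5), where the median of all tested probe sets moved to -0.42, and 0 to 1 on leaving out 1 array, with 1 without the first DKO-3 normoxia array. The cause of these changes was not tested. In the other 5 comparisons the count stayed 0 in every alternative run. No called value changed sign. Without scaling, calls over all 32768 tested probe sets between the lines averaged over oxygen were 246 higher and 3298 lower, against 569 and 1301. With the ACTB ratio in the fit they were 161 higher and 371 lower. Between the lines in hypoxia they were 111 higher and 5100 lower without scaling, against 188 and 494. The 5 member calls made there without scaling lay in the direction of most calls.

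The labels number the arrays of every group alike without saying what a number shares. Deviations of same-numbered arrays correlated with r from -0.06 to 0.35 over pairs of groups. The highest values were between the lines, at 0.35 in hypoxia and 0.21 in normoxia. The first array of every group also had the higher ACTB ratio. In the main fit the numbers were not taken to pair the samples. A batch shared by number was not tested beyond the block fit that follows. With the replicate number as a block, the lines in hypoxia had 1 member probe set past the threshold (BCL2L1 215037_s_at, adjusted p of 0.0302, limma), and the counts in the other 6 comparisons were those without the block. Of the pathway lists, BCL2L10 and ATF4 then passed in hypoxia between the lines, and ATF4 and PPP3CA averaged over oxygen, all lower in DKS-5.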

Other observations

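The 6 member probe sets under the filter were not tested. For BCL2 they had scaled signals of 7.47 to 18.2 (207005_s_at), 0.58 to 12.3 (203685_at) and 0.73 to 3.35 (203684_s_at) over the 8 arrays. The BCL2L1 probe set 231228_at had 2.49 to 23.2. The BAD probe sets had 1.46 to 18.9 (209364_at) and 2.02 to 11.7 (232660_at). For 209364_at the DKS-5 hypoxia arrays stood at 1.56 and 14.5 and the DKO-3 normoxia arrays at 1.46 and 14.1, so replicates of a group lay near opposite ends of its range. The higher array of both pairs was the one with the lower ACTB ratio, 25.6 beside 54.8 and 14.9 beside 49.0, and the part of RNA quality in these values was not tested.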
